A study of Homo sapiens with 14 samples.

Results

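Urokinase (PLAU), its receptor (PLAUR), the tissue-type activator (PLAT) and their inhibitor protease nexin-1 (SERPINE2) were followed in RNA counts from SH-EP cells, a long-established line of human neuroblastoma origin. These 4 genes were taken by symbol from 61533 genes in the count table. All 4 were among the 16056 genes that passed the filter on low counts. They were selected on results of the same data, but the sources used here do not state which values chose them. The call of PLAU in the comparison of lenalidomide with DMSO in SPARK-ON cells was taken as the selecting result. Whether differences between the lines also played a part in the selection is not known. In the comparison of lenalidomide with DMSO in SPARK-ON cells their values are therefore a description with no test. The 4 groups all carry n-Myc. There were 3 libraries of n-Myc SPARK-ON cells with lenalidomide, 3 of n-Myc SPARK-ON cells in DMSO, 2 of n-Myc control cells (no SPARK-ON) with lenalidomide and 3 of n-Myc control cells in DMSO. SPARK-ON is a tag through which lenalidomide brings n-Myc to phase separate, and the study used it to ask what phase separation changes in the transcriptome at a constant n-Myc concentration. The SPARK-ON cells came from a single clone, so the clone and the tag cannot be told apart in any comparison between the lines. The labels give no dose or time of lenalidomide.

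Plasminogen is an inactive protease precursor that is cut to plasmin, an enzyme that degrades fibrin and extracellular matrix and activates other proteases and growth factors. Urokinase makes this cut mainly at the cell surface, held by its receptor, and is known for its part in the migration and invasion of tumor cells. The tissue-type activator works best on fibrin and, in nervous tissue, also acts in neurite growth and synaptic plasticity. Protease nexin-1 is a serpin, a kind of inhibitor that traps the activators in covalent complexes that receptors of the LDL receptor family then clear from the surface.

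On GRCh38, PLAU (ENSG00000122861.16) lies on chromosome 10 at 73909177 to 73917497 on the plus strand, PLAUR (ENSG00000011422.12) on chromosome 19 at 43646095 to 43670547 on the minus strand, and SERPINE2 (ENSG00000135919.14) on chromosome 2 at 223975112 to 224039319 on the minus strand, per GENCODE 29. The 250 bases before a RefSeq start site (GRCh38.p14) are shown for these genes because n-Myc binds the E-box CACGTG, and the windows show where such letters stand. The table of promoters held entries for 3 of the 4 genes. Searches on both strands covered CACGTG, the AP-1 motif TGANTCA and the SP1 motif GGGCGG, and no matches of different motifs overlapped in the sequences shown. Matches are in capitals.
PLAU, chr10:73910882-73911131, plus strand: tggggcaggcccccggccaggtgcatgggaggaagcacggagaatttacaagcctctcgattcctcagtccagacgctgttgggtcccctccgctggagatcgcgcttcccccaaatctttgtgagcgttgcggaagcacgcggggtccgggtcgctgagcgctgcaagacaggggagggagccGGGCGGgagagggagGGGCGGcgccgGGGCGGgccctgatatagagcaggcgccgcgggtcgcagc
PLAUR, chr19:43670170-43670419, minus strand: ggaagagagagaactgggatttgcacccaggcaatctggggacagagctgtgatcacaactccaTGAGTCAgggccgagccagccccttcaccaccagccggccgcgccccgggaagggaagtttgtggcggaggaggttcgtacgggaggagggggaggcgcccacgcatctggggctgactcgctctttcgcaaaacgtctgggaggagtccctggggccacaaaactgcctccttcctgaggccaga
SERPINE2, chr2:224031479-224031728, minus strand: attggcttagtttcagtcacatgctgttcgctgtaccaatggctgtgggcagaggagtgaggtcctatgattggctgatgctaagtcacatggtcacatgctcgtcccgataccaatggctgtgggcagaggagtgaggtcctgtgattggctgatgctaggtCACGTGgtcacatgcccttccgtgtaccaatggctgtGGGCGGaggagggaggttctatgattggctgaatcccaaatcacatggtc
The PLAU window held 3 GGGCGG matches, which began at -66, -51 and -40 from the start site, and no CACGTG or TGANTCA. A second PLAU window in the table held none of the 3 motifs. The PLAUR window held TGANTCA at -186. The SERPINE2 window held CACGTG at -87 and GGGCGG at -50, and the second SERPINE2 window held 2 GGGCGG matches. Of 35116 windows of this length over all genes, 6.34% held CACGTG, 6.57% held TGANTCA and 42.6% held GGGCGG. A match is a description of letters and not a site of binding.

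The libraries held 6614671 to 21511684 counts, and the shallowest, replicate 3 of SPARK-ON cells with lenalidomide, still gave 198 to 1253 counts for each of the 4 genes. MYCN, the gene of n-Myc, averaged 2280 to 2550 CPM (counts relative to a library size scaled by TMM) in the 4 groups. Its log2 difference between the lines was -0.09 (SE 0.0822, adjusted p = 0.404, edgeR) in DMSO. All 8 markers of SH-EP cells were above 1 CPM in at least 1 of the libraries, a count that was not made for each group. Their summed level was 1490 to 1690 CPM in SPARK-ON libraries and 2770 to 2890 CPM in control libraries, which moves with every difference between the lines given here and whose part in them was not tested. Of these markers 2 were lower, 1 was higher and 5 were not called in SPARK-ON cells in DMSO, with a median log2 difference of -0.143. Of all genes tested, 20.4% were called lower there and 21.1% higher. CD44 was lower in SPARK-ON cells by a log2 change of -1.24 (SE 0.0602, adjusted p = 1.14e-11) and VIM by -1.21 (SE 0.0783, adjusted p = 6.06e-10) in DMSO. The higher marker was FN1, by 0.588 (SE 0.135, adjusted p = 0.00186). In DMSO CD44 averaged 500 CPM in SPARK-ON and 1190 CPM in control cells, and VIM 521 and 1210 CPM. The summed level thus rests largely on CD44 and VIM and does not describe the marker set as a whole. Markers of adrenergic neuroblastoma cells summed to 5.0 to 8.73 CPM, with PHOX2A and CHGA at 0 in all libraries. Of these markers 2 were tested and 1, HAND2, was higher in SPARK-ON cells, at 1.1 ± 0.25 CPM against 0.106 ± 0.046 CPM in DMSO (SD, n = 3 each, adjusted p = 0.0021), the latter below the level of 3 counts. With lenalidomide HAND2 averaged 0.427 CPM in SPARK-ON cells and had no counts in control cells (adjusted p = 0.00659), a call lost without replicate 2 of control cells with lenalidomide (adjusted p = 0.0522). The part of HAND2 in the differences between the lines was not tested. Markers of other cell types summed to 2.15 to 5.44 CPM, with 3 of 10 at 0. Replicates of the SPARK-ON line were tighter, with a coefficient of variation of 4.71%, than those of the control line, with 12.9%. Replicate 1 of control cells in DMSO stood apart from the other replicates of its group, with a chi-square per degree of freedom of 25.1 and 29.4 against 4.82 between those. Without it the log2 differences in DMSO given below became 1.08 for PLAU, -1.46 for PLAT, -0.30 for PLAUR and 0.23 for SERPINE2, each still called.

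PLAU, the gene of urokinase, was at about double the level in SPARK-ON cells. In DMSO it stood at 47.2, 50.7 and 50.8 CPM in the SPARK-ON libraries and at 25.2, 24.0 and 22.6 CPM in the control libraries. The lowest SPARK-ON library thus lay well above the highest control library. How many of all genes tested separated in this way between the lines was not counted. A lack of overlap between the lines, here and for the genes below, is therefore a description only. The log2 difference was 1.05 (SE 0.0825, 2.07-fold, adjusted p = 8.73e-09, edgeR), against 21.1% of all genes tested that were called higher in SPARK-ON cells and 20.4% called lower. A change at least as large in either direction was found for 17.5% of genes. With lenalidomide the SPARK-ON libraries held 72.0, 71.1 and 68.1 CPM of PLAU and the control libraries 29.8 and 30.3 CPM. The groups again stood apart, with a log2 difference of 1.23 (SE 0.0937, 2.34-fold, adjusted p = 7.68e-09), where 19.7% of genes were called higher and 19.7% lower. These SPARK-ON values with lenalidomide are also among those on which PLAU was taken to be selected. The size and p-value of this difference may thus be favored by the selection, also where it exceeds the difference in DMSO. The comparisons within a line and between lines share libraries and are not independent of each other. In bulk RNA, fewer expressing cells and less RNA per cell cannot be told apart. C10orf55 overlaps PLAU exons on the opposite strand, and the sources used here give no strand setting for the counting. It held 0 to 8 counts per library, against 403 to 1189 for PLAU. These counts do not show whether reads in the shared exons were assigned to PLAU, which was not tested.

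**Figure D1:**
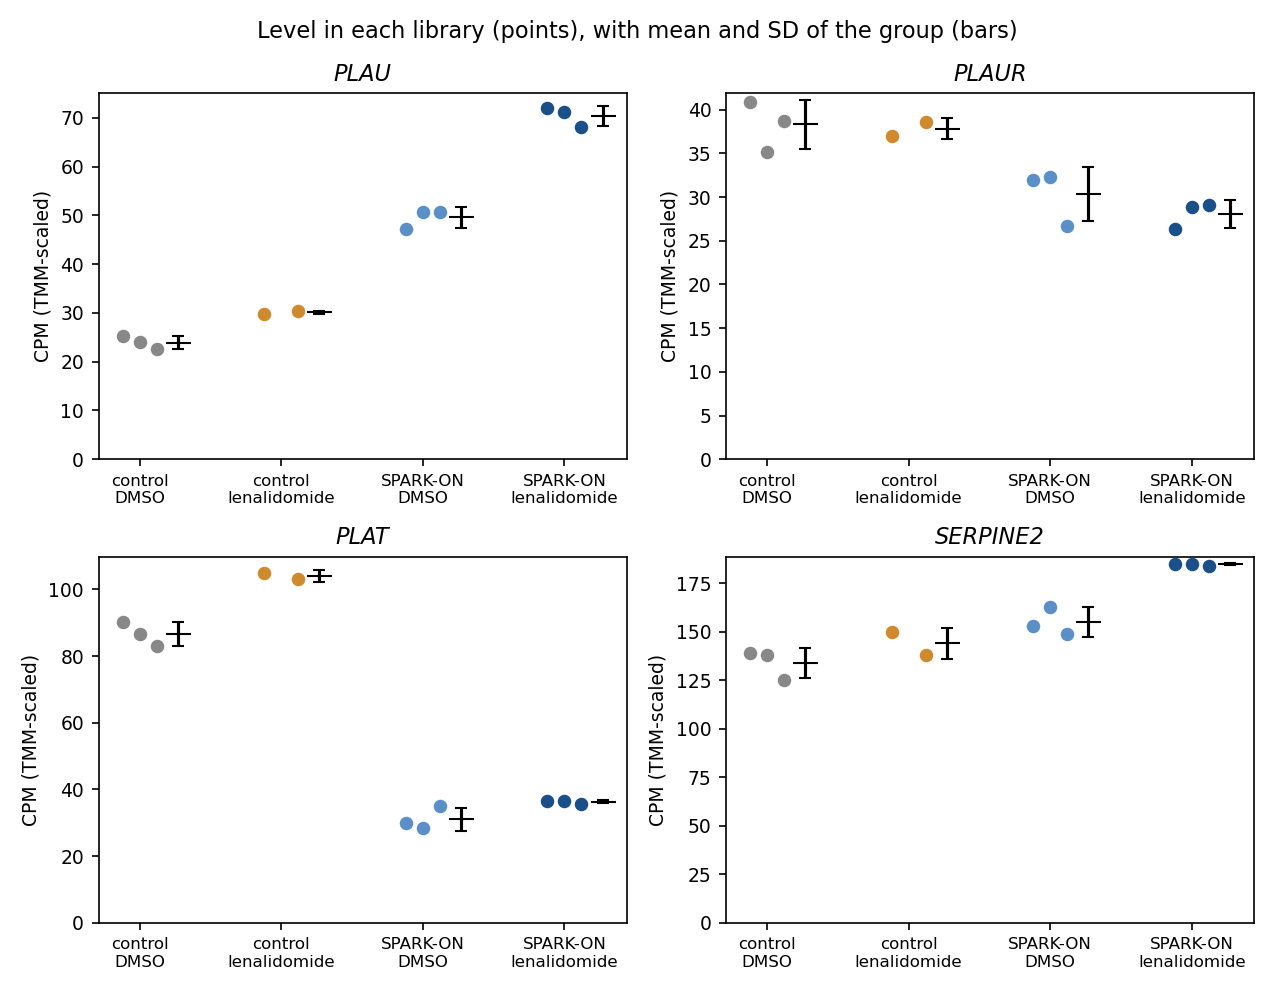
Level of each gene in CPM on the TMM-scaled library size (y axis, from 0) in each library (points), with the group mean and SD beside the points, for 3 libraries per group and 2 for control cells with lenalidomide. Group means of PLAU run from 23.9 to 70.4 CPM. Those of PLAT are 86.6 and 104 CPM in control cells and 31.0 and 36.3 CPM in SPARK-ON cells.

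PLAT, the gene of the tissue-type activator, differed the other way. It lies on chromosome 8 at 42175233 to 42207724 on the minus strand (ENSG00000104368.19, GRCh38, GENCODE 29). In DMSO it was at 29.8, 28.3 and 35.0 CPM in SPARK-ON libraries and at 90.2, 86.7 and 82.9 CPM in control libraries. No library of a line came near the other line's range. The log2 difference was -1.48 (SE 0.0866, 2.79-fold lower in SPARK-ON cells, adjusted p = 1.61e-10), and 11.3% of genes tested had a change at least as large. With lenalidomide PLAT stood at 36.5, 36.5 and 35.7 CPM in SPARK-ON libraries and at 105 and 103 CPM in control libraries. There the log2 difference was -1.52 (SE 0.0947, 2.86-fold lower, adjusted p = 5.23e-10).

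The balance of the activator transcripts therefore lay on opposite sides of parity in the lines. Per kilobase of exon, PLAU averaged 8.11 ± 0.44 CPM per kb (SD, n = 3) and PLAT 13.1 ± 0.55 in control cells in DMSO. In SPARK-ON cells in DMSO these levels were 16.8 ± 0.71 and 4.69 ± 0.53 CPM per kb (SD, n = 3). The ratio of PLAU to PLAT on this scale was 0.626, 0.62 and 0.612 in the control DMSO libraries and 0.636 and 0.662 in the control lenalidomide libraries. It was 3.56, 4.02 and 3.26 in SPARK-ON libraries in DMSO and 4.42, 4.37 and 4.27 with lenalidomide. All 5 control libraries had more PLAT than PLAU transcript per length, and all 6 SPARK-ON libraries more PLAU than PLAT. The ratio combines the differences tested above and was given no test of its own. Its size depends on the exon lengths used, 2950 bases for PLAU and 6618 for PLAT, all annotated exons together. It also depends on how reads in PLAU exons shared with C10orf55 were counted, which was not tested. Without division by length PLAU was also below PLAT in control cells in DMSO, at 23.9 against 86.6 CPM. In SPARK-ON cells in DMSO it was above PLAT, at 49.6 against 31.0 CPM.

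**Figure D2:**
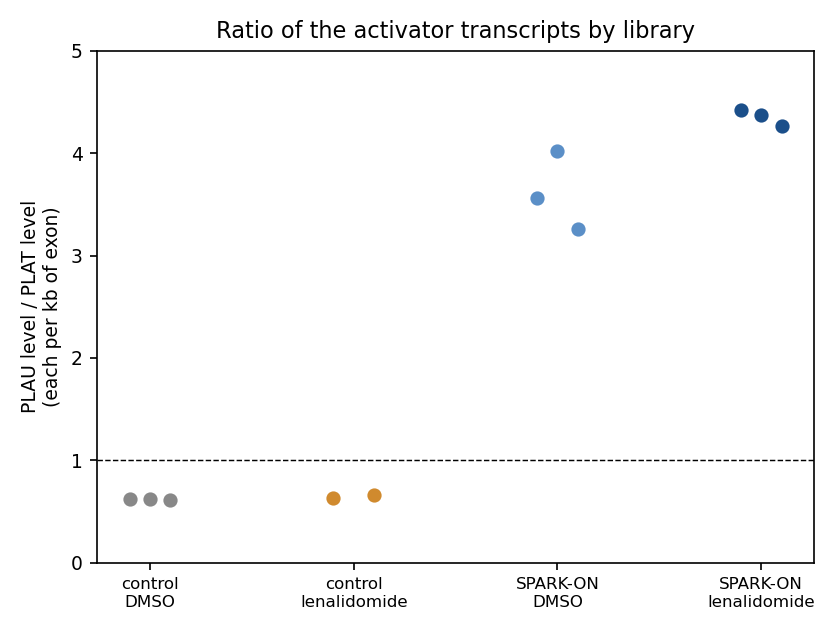
Ratio of the PLAU level to the PLAT level, each in CPM per kilobase of exon (y axis, from 0), in each of 11 libraries (points) by group, with a dashed line at equal levels. Control libraries lie between 0.612 and 0.662 and SPARK-ON libraries between 3.26 and 4.42.

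PLAUR, the receptor that anchors urokinase to the cell surface, did not follow its ligand. In DMSO it was at 32.0, 32.3 and 26.7 CPM in SPARK-ON libraries and 40.9, 35.2 and 38.7 CPM in control libraries. The lines did not overlap, but the nearest libraries, at 32.3 and 35.2 CPM, were close. The log2 difference was -0.34 (SE 0.0972, adjusted p = 0.00918), a size that 50.3% of genes tested reached. Leaving out replicate 3 of SPARK-ON cells in DMSO, the library with the lowest PLAUR of that group, gave -0.25 (adjusted p = 0.0715), and scaling by library size alone gave -0.24 (adjusted p = 0.0504). With lenalidomide PLAUR stood at 26.3, 28.8 and 29.1 CPM in SPARK-ON libraries and at 37.0 and 38.6 CPM in control libraries. The log2 difference was -0.43 (SE 0.111, adjusted p = 0.00428), and all 19 alternative settings kept that call. The noncoding RN7SL368P lies within PLAUR on the same strand without sharing an exon, with 0 to 8 counts per library.

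SERPINE2, a serpin that inhibits urokinase, the tissue-type activator, plasmin and thrombin, was somewhat higher in SPARK-ON cells. In DMSO it held 153, 163 and 149 CPM in SPARK-ON libraries and 139, 138 and 125 CPM in control libraries. These groups did not overlap, a separation whose share over all genes was not counted. The log2 difference was only 0.21 (SE 0.0708, adjusted p = 0.023), and 65.0% of genes tested changed by as much. The call was lost without replicate 1 of SPARK-ON cells in DMSO (0.22, adjusted p = 0.05, not below the threshold), without replicate 2 of that group (0.17, adjusted p = 0.118), without replicate 3 of control cells in DMSO (0.16, adjusted p = 0.113), and with no filter on low counts (0.21, adjusted p = 0.0672). With lenalidomide SERPINE2 stood at 185, 185 and 184 CPM in SPARK-ON libraries and at 150 and 138 CPM in control libraries. This difference of 0.36 on the log2 scale (SE 0.08, adjusted p = 0.00152) was called under all 19 alternative settings. Per kilobase of exon SERPINE2 averaged 17.4 ± 0.84 CPM per kb (SD, n = 3) in SPARK-ON cells in DMSO, close to the 16.8 ± 0.71 of PLAU there. That closeness depends on the exon lengths used, 8891 bases for SERPINE2 and 2950 for PLAU, all annotated exons together. Without division by length SERPINE2 averaged 155 CPM and PLAU 49.6 CPM there. Which transcripts the cells made was not tested. In control cells in DMSO it averaged 15.1 ± 0.88 CPM per kb (SD, n = 3), above the 8.11 ± 0.44 of PLAU.

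Lenalidomide itself was compared with DMSO in control cells, which have no SPARK-ON, to see what the compound does without it. By edgeR none of the 4 genes passed the test there, nor in any of the 19 alternatives, DESeq2 and limma-voom included. Of all genes tested 0.0436%, 7 in number, were called in either direction, and 774 had an unadjusted p below 0.05. PLAU stood at 29.8 and 30.3 CPM with lenalidomide and at 25.2, 24.0 and 22.6 CPM in DMSO. Both lenalidomide libraries lay above all DMSO libraries, with a log2 change of 0.33 (SE 0.0931, unadjusted p = 0.00228, adjusted p = 0.55). PLAT likewise stood higher in both lenalidomide libraries, at 105 and 103 CPM against 82.9 to 90.2 CPM, with a log2 change of 0.26 (SE 0.0913, unadjusted p = 0.00986, adjusted p = 0.873). Such a lack of overlap with higher values was found for 7.69% of all genes tested, and for 2 of these 4. The log2 change was 0.10 for SERPINE2 (SE 0.079, adjusted p = 1) and -0.02 for PLAUR (SE 0.107, adjusted p = 1), and their groups overlapped. Without replicate 1 of control cells in DMSO, PLAU was at 0.37 (adjusted p = 0.167), PLAT at 0.29 (adjusted p = 0.241) and PLAUR at 0.03 (adjusted p = 0.964).

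In SPARK-ON cells PLAU was at 72.0, 71.1 and 68.1 CPM with lenalidomide and 47.2, 50.7 and 50.8 CPM in DMSO, a log2 change of 0.51 (SE 0.0798, 1.42-fold). This is the value on which PLAU was taken to be selected, in a comparison where 11 genes, 0.0685% of those tested, were called higher and none lower. The count called was 381 in either direction when only the 6 SPARK-ON libraries were fitted and 44 by DESeq2. It was 0 without any 1 of the SPARK-ON DMSO libraries or replicate 2 of SPARK-ON cells with lenalidomide (607 to 666 genes at an unadjusted p below 0.05), and 67 without replicate 1 of control cells in DMSO. At the edge of the calls, DKK1 had a log2 change of 0.54 (adjusted p = 0.0414) just inside, and TIMP3 one of 0.64 (adjusted p = 0.0598) just outside. SERPINE2 lay at 184 to 185 CPM with lenalidomide and 149 to 163 CPM in DMSO, a log2 change of 0.25 (SE 0.071). PLAT lay at 35.7 to 36.5 CPM against 28.3 to 35.0 CPM, a log2 change of 0.22 (SE 0.0901), with the third DMSO library close to the lenalidomide libraries. PLAUR overlapped between the groups, at 26.3 to 29.1 CPM with lenalidomide and 26.7 to 32.3 CPM in DMSO, a log2 change of -0.11 (SE 0.101). Every lenalidomide library stood above every DMSO library for PLAU, which was taken to be selected here, for SERPINE2 and, narrowly, for PLAT (35.7 against 35.0 CPM). The same held for 9.62% of all genes tested. As PLAU was taken to be chosen by this comparison, these separations are a description only.

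The lenalidomide changes of the lines can be set side by side. The log2 change of PLAU was 0.51 in SPARK-ON and 0.33 in control cells, a difference of 0.18 (SE 0.123) on the log2 scale. SERPINE2 differed by 0.15 (SE 0.106), PLAUR by -0.10 (SE 0.148) and PLAT by -0.04 (SE 0.129). These differences were not tested because they contain the comparison taken to have selected PLAU. For PLAU the order of the groups was SPARK-ON with lenalidomide, SPARK-ON in DMSO, control with lenalidomide and control in DMSO. No neighbours overlapped, but the first step is the comparison in which PLAU was taken to be selected. The share of all genes with such an order was not counted. For PLAT it was control with lenalidomide, control in DMSO, SPARK-ON with lenalidomide and SPARK-ON in DMSO, again with no overlap.

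**Figure D3:**
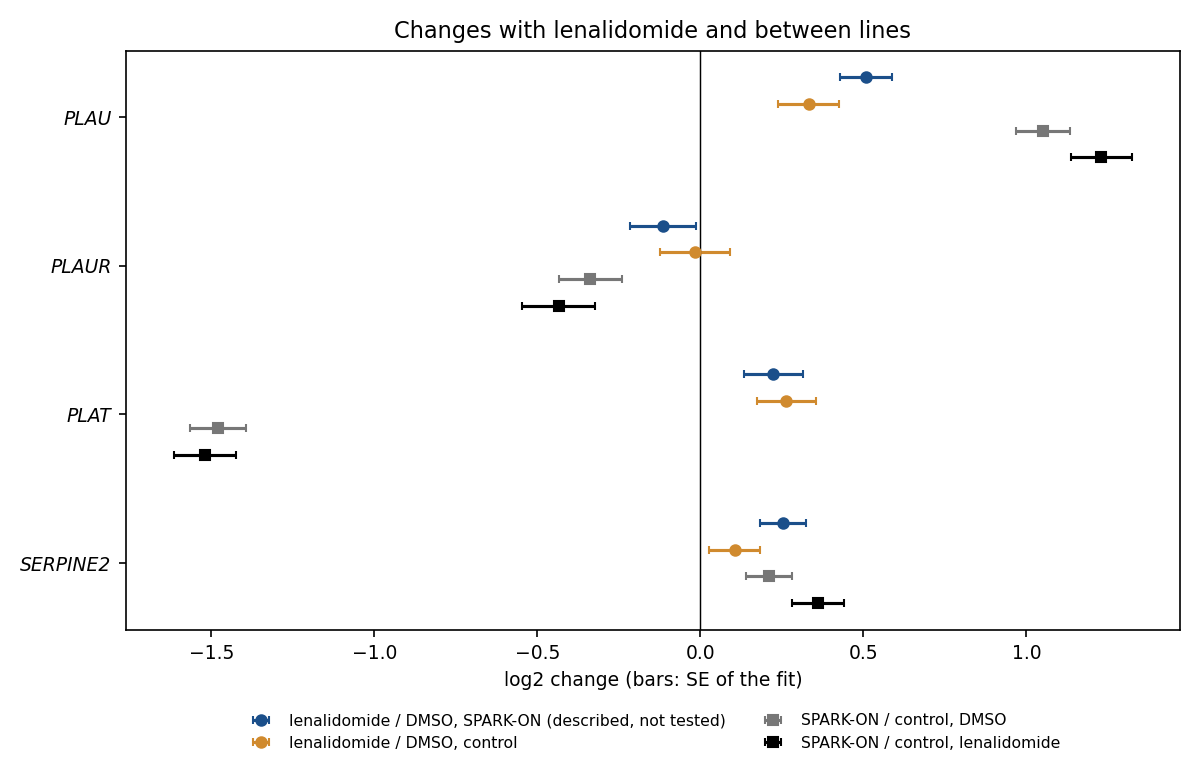
Log2 change (x axis, points, with the SE of the fit as bars) of the 4 genes for lenalidomide over DMSO in each line (circles) and for SPARK-ON over control in each treatment (squares). The squares lie far from 0 for PLAU (1.05 and 1.23) and PLAT (-1.48 and -1.52), while the lenalidomide changes of all 4 genes lie between -0.11 and 0.51.

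The other inhibitors of the system moved in both directions between the lines. Of 13 genes, 8 were tested, and in DMSO 2 were higher and 3 lower in SPARK-ON cells. Their median log2 difference was 0.28 against 0.01 over all genes tested. Of all genes tested, 21.1% were called higher and 20.4% lower in DMSO, and 19.7% each way with lenalidomide. The higher genes were PZP and SERPINH1. PZP, a broad protease inhibitor at low level (1.49, SE 0.578, adjusted p = 0.0474), was called in only 4 of 17 alternatives. SERPINH1, a collagen chaperone that inhibits no protease (0.23, SE 0.0863, adjusted p = 0.0412), was called in 12 of 19. The lower genes were A2M, a plasma-type trap for many proteases (-2.17, SE 0.275, adjusted p = 4.19e-06), SERPINB8 (-1.01, SE 0.144, adjusted p = 1.68e-05) and SERPINB6 (-0.25, SE 0.0775, adjusted p = 0.016). The SERPINB6 call was lost with library size alone and without replicate 2 or replicate 3 of SPARK-ON cells in DMSO. With lenalidomide PZP was higher, and A2M, SERPINB8 and SERPINB6 were lower. There the PZP call, from a control mean of 0.254 CPM, held in 13 of 18 alternatives and the SERPINB6 call in 16 of 19. SERPINB2, the gene of plasminogen activator inhibitor 2, had 0 counts in all 11 libraries, as did plasminogen itself (PLG). A count of 0 allows up to 3 counts, which is 0.143 to 0.441 CPM depending on the library.

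Of 4 genes whose products bind plasminogen at the cell surface, all were tested. In each treatment 2 were lower in SPARK-ON cells and 2 were not called. Their median log2 difference was -0.11 in DMSO. Among all genes tested, 20.4% were called lower in DMSO and 19.7% with lenalidomide. ANXA2, which with S100A10 forms a surface receptor for plasminogen and the tissue-type activator, averaged 2240 ± 63 CPM (SD, n = 3) in SPARK-ON cells in DMSO and 2940 ± 280 CPM (SD, n = 3) in control cells. Its log2 difference was -0.39 (SE 0.0645, adjusted p = 7.93e-05). ENO1, a glycolytic enzyme that also binds plasminogen on the surface, differed by the same -0.39 (SE 0.0668, adjusted p = 0.000124). S100A10 was not called in DMSO (0.17, SE 0.12, adjusted p = 0.291) or with lenalidomide (0.33, SE 0.136, adjusted p = 0.0613).

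Among partners of the urokinase receptor and the receptors that clear its complexes, 14 of 15 genes were tested and 6 were higher and 3 lower in SPARK-ON cells in DMSO, with 7 higher and 3 lower with lenalidomide. The median log2 difference in DMSO was 0.27. Over all genes tested the shares were 21.1% higher and 20.4% lower in DMSO, and 19.7% each way with lenalidomide. LRP1, the main receptor that takes up complexes of the activators with their serpins, was at 15.0, 14.5 and 13.6 CPM in SPARK-ON libraries in DMSO and 2.5, 4.16 and 3.49 CPM in control libraries. Its level was thus several times higher in each SPARK-ON library, with a log2 difference of 2.09 (SE 0.194, 4.24-fold, adjusted p = 8.57e-08). VLDLR, which takes up the same complexes, was lower (-1.19, SE 0.0823, adjusted p = 1.63e-09), as were ITGB3, an integrin chain of the vitronectin receptor (-2.12, SE 0.206, adjusted p = 1.52e-07), and ITGB1, named after its values were seen (-0.35, SE 0.0803, adjusted p = 0.00164). ITGA3, an integrin chain that associates with the receptor, was higher (0.52, SE 0.0605, adjusted p = 1.52e-06), and so was MRC2, a collagen receptor found in a complex with urokinase and its receptor (0.47, SE 0.069, adjusted p = 2.45e-05). All 6 of these calls held in 19 of 19 alternatives.

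Genes of coagulation at the cell surface included wide differences. Of 10 genes, 5 were tested, and in DMSO 3 were higher and 1 lower in SPARK-ON cells, with a median log2 difference of 2.12. For all genes tested the shares were 21.1% higher and 20.4% lower in DMSO, and 19.7% each way with lenalidomide. TFPI, an inhibitor of the tissue factor pathway, averaged 17.4 ± 0.89 CPM in SPARK-ON cells and 1.91 ± 0.15 CPM in control cells (SD, n = 3 each), a log2 difference of 3.18 (SE 0.143, adjusted p = 3.86e-12). PROCR, the endothelial protein C receptor, differed by 2.12 (SE 0.172, adjusted p = 1.37e-08). F2RL2, a thrombin receptor, averaged 1.07 ± 0.17 CPM in SPARK-ON cells and 0.0517 ± 0.048 CPM in control cells (SD, n = 3 each, adjusted p = 0.000102), where the control level is below that of 3 counts. F2R, the main thrombin receptor, was lower (-0.27, SE 0.082, adjusted p = 0.0128), a call lost with library size alone. With lenalidomide TFPI, PROCR and F2RL2 were higher again.

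**Figure D4:**
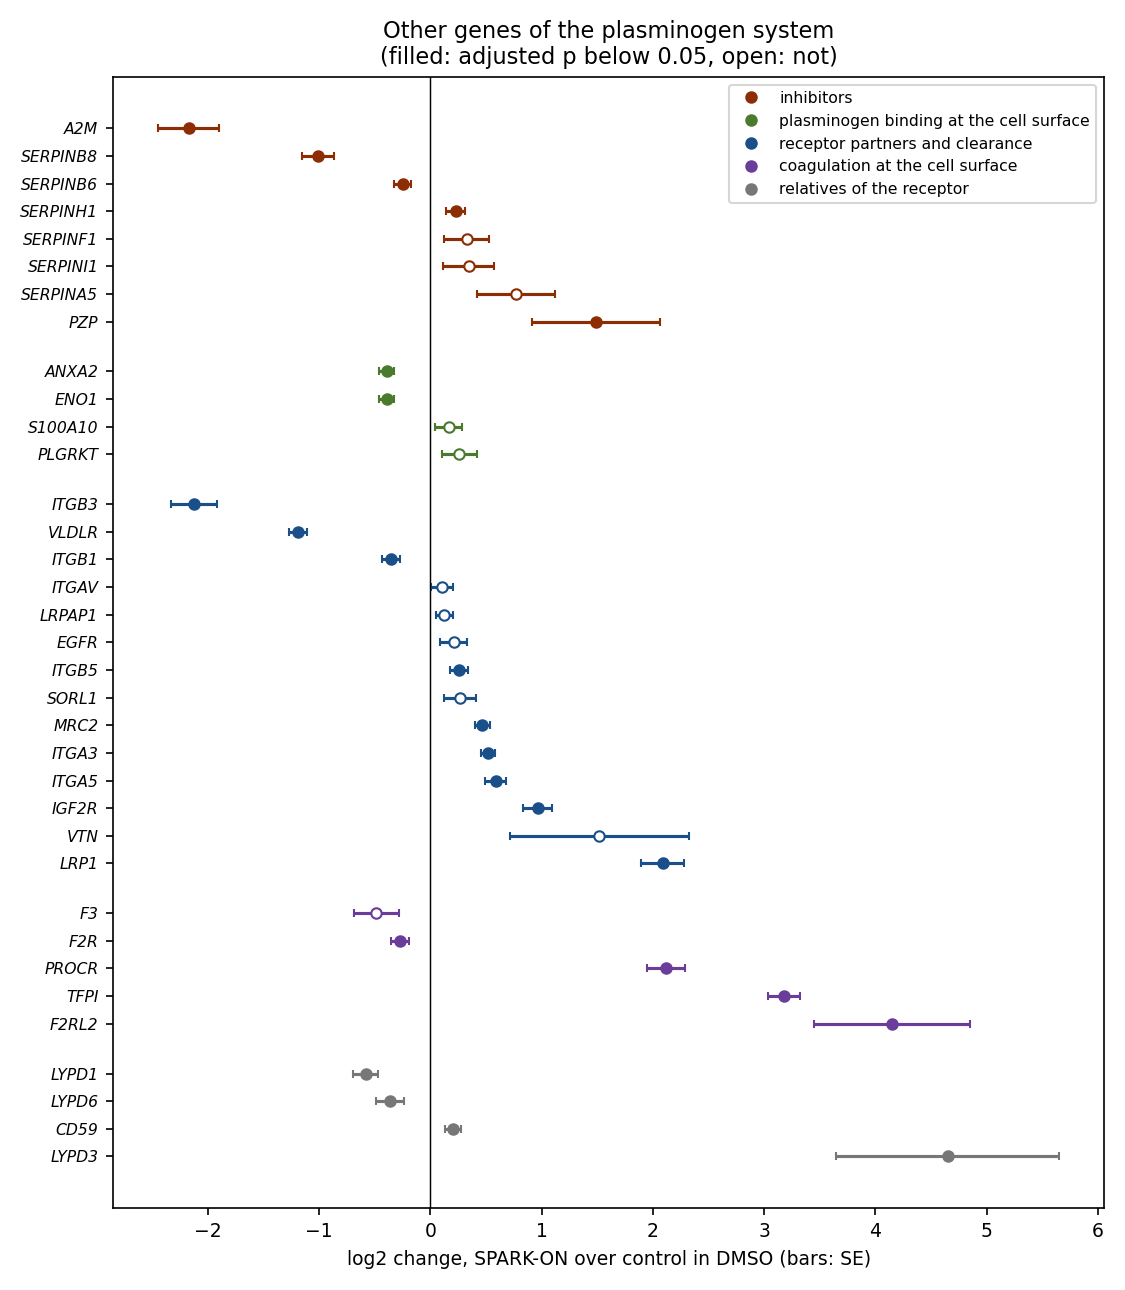
Log2 difference between SPARK-ON and control cells in DMSO (x axis, points, with the SE of the fit as bars) for tested genes of 5 lists around the plasminogen system, coloured by list. Filled points had an adjusted p below 0.05, among them LRP1 at 2.09 and TFPI at 3.18 to the right and ITGB3 at -2.12 and A2M at -2.17 to the left.

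A list of 6 genes whose proteins share the domain fold of PLAUR, a part of that large family, had 4 tested. In DMSO 2 were higher and 2 lower in SPARK-ON cells. The shares of all genes tested were 21.1% higher and 20.4% lower in DMSO, and 19.7% each way with lenalidomide. LYPD1, a membrane protein of this family, was lower (-0.58, SE 0.113, adjusted p = 0.000433). LYPD3, a gene close to PLAUR in sequence, averaged 0.619 ± 0.36 CPM in SPARK-ON cells and 0.0181 ± 0.031 CPM in control cells (SD, n = 3 each, adjusted p = 0.00109), the latter below the level of 3 counts. The calls of CD59, which guards cells against complement (0.20, adjusted p = 0.0281), and LYPD6 (-0.36, adjusted p = 0.0286) held in 12 and 10 of 19 alternatives. With lenalidomide LYPD1 and LYPD6 were lower. LYPD6 was also the only gene of any of the 10 lists called for lenalidomide in control cells, with a log2 change of 0.78 (SE 0.131, adjusted p = 0.0409), and that call held in 6 of 19 alternatives.

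Of 13 transcription factors tied in textbooks to PLAU, or belonging to the MYC genes, all were tested. In DMSO none was higher and 5 were lower in SPARK-ON cells, with a median log2 difference of -0.29. Across all genes tested, 21.1% were called higher and 20.4% lower in DMSO, and 19.7% each way with lenalidomide. JUN, a chain of AP-1, averaged 34.9 ± 1.9 CPM in SPARK-ON cells and 128 ± 3.5 CPM in control cells (SD, n = 3 each), a log2 difference of -1.87 (SE 0.0811, adjusted p = 2.45e-12). FOSL2 (-1.47, SE 0.0735, adjusted p = 1.76e-11) and JUND (-1.34, SE 0.0962, adjusted p = 2.78e-09) are also chains of AP-1, and ETS1 (-0.60, SE 0.091, adjusted p = 3.06e-05) is a factor of the ETS family. The fifth, ETS2 (-0.29, SE 0.0751, adjusted p = 0.0042), was named after its values were seen. With lenalidomide 1 was higher, namely MYC (1.02, SE 0.26, adjusted p = 0.0042, also named afterwards), and 6 were lower. Of 8 other activators and zymogens 2 were tested. Neither was called in DMSO, and F12, the gene of coagulation factor XII, was higher with lenalidomide (2.10, SE 0.506, adjusted p = 0.00287) from a control mean of 0.664 CPM.

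As a description, the genes most like each of the 4 over the 11 libraries were found by Pearson's r of log2 CPM among 10638 genes with a mean of at least 5 CPM. All 11 points share the difference between the lines, so that r is high for many genes. For PLAU the nearest were PRSS23, a secreted serine protease (r = 0.994), PLK2 (0.991), TNFAIP2 (0.991), ITGA3 (0.99) and MYLK (0.989), and 212 genes reached an r of 0.95. For PLAT they were CABLES1 (0.994), MARCKS, GPM6A, PPP1CB and UPRT (0.992 each), with 616 genes at that level. PLAUR had 5 such genes, TMEM63B (0.964), VSIG10 (0.958), H1-2 (0.956), PSPC1 (0.953) and GLMN (0.951). SERPINE2 had none, its nearest being GSTZ1 (0.945), GLE1 (0.945), SLC8B1 (0.943), PLAU (0.936) and PHETA1 (0.936). PLAU was thus the only one of the 4 that appeared among the nearest genes of another.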

How the data were processed

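Polyadenylated RNA of SH-EP cells was sequenced. The authors deposited raw read counts per gene in whole numbers, without normalization. Per the submitters' processing notes, FastQC, fastp, HTSeq and edgeR were used with hg38. The tools' versions, aligner, annotation and strand setting are not given in the sources used here. Of the table, 11 columns of 4 groups were matched to samples by their labels. Another 3 columns could not be matched and were not used, so a planned comparison of each line with baseline cells was left out.

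Counts were analysed with edgeR 4.0.16 in R 4.3.3: filterByExpr with a minimum count of 10, TMM, 1 mean per group (7 residual degrees of freedom over 4 groups), and two-sided quasi-likelihood tests (glmQLFit, glmQLFTest). P-values were Benjamini-Hochberg adjusted over all 16056 genes tested, with a threshold of 0.05. The SE of a log2 change is its size over the square root of F. Levels per kilobase divide CPM by the union of GENCODE 29 exons. Gene identifiers were named from a table that matched 61415 of 61533. Simulated counts were used to test the procedure. Figures were drawn with matplotlib 3.10.9.

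The 4 genes and the 10 gene lists were chosen with earlier results of these data known. Named genes are the 4 members, SERPINB2, ANXA2, S100A10 and LRP1, at most the 4 called genes of smallest p per list and comparison, and the 5 genes of highest correlation with each member. Some items of the lists and of this rule are not reported here and were left out of the list counts. The text gives part of the rest, and says where a gene falls outside the rule. Alternatives were other scalings, filters and tools (DESeq2 1.42.0, limma 3.58.1), a fit of only the groups compared, a replicate block and omission of each library. Replicates carry numbers only, so p-values measure the spread between these samples, which may be technical. Same-numbered libraries of different groups showed no shared deviation, a check that cannot exclude pairing. Libraries of 1 group differed by more than sampling noise, with chi-square per degree of freedom of 2.42 to 29.4.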

Additional observations from a re-analysis of the deposited data

Results flagged for a closer look

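CD44, a surface marker of mesenchymal cells, was the only gene reported here whose libraries moved in opposite directions with lenalidomide in the lines. All SPARK-ON libraries with lenalidomide lay above those in DMSO, and all control libraries with lenalidomide lay below. The log2 change was 0.10 (SE 0.0596) in SPARK-ON cells and -0.06 (SE 0.0662) in control cells. Their difference was 0.164 (SE 0.0892, unadjusted p = 0.0831, adjusted p = 1, edgeR), so it did not pass the test.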

How the results depend on the processing

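PLAU and PLAT were called in both comparisons between the lines under all 19 alternatives, with PLAU at 1.01 to 1.14 in DMSO and 1.21 to 1.33 with lenalidomide, and PLAT at -1.57 to -1.39 and -1.54 to -1.41. PLAUR in DMSO gave -0.245 (adjusted p = 0.0504) with library size alone and -0.394 to -0.252 with 1 library left out. SERPINE2 in DMSO gave 0.206 (adjusted p = 0.0672) with no filter and 0.162 to 0.24 with 1 library left out. PLAUR for lenalidomide in control cells turned to 0.0135 without replicate 1 of control cells with lenalidomide and to 0.0261 without replicate 1 of control cells in DMSO, over a range of -0.0731 to 0.0261. The 7 genes called for lenalidomide in control cells became 27 with no filter, 24 with DESeq2, 1 with limma-voom and group weights and 0 with only the groups compared (295 at an unadjusted p below 0.05). They became 0 to 21 with 1 library left out, 21 without replicate 1 of control cells in DMSO and 0 without either control library with lenalidomide. The cause was not tested. Replicate numbers showed no sign of pairing the samples: deviations of same-numbered libraries correlated at -0.182 to 0.0372, and 1 of 11 libraries correlated best with its own number. Deviations from the mean of so few libraries are tied to each other, so this check cannot exclude pairing. With the replicate number as a block, 1 gene was called for lenalidomide in control cells, 6081 in place of 6675 between the lines in DMSO and 5645 in place of 6334 with lenalidomide, and no call of the 4 genes changed. With library size alone the median log2 difference of all genes between the lines went from 0.0114 to 0.102 in DMSO and from 0.0154 to 0.121 with lenalidomide, and the genes called from 3395 higher and 3280 lower to 4262 and 2547, and from 3165 and 3169 to 4045 and 2396. The alternatives of the baseline comparisons were not run.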
